A study of Mus musculus with 24 samples.

Results

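The genes described here are 47 genes of DNA replication and nucleotide supply, named by symbol from a fixed list, of the 19938 genes that the array's platform annotation names. They comprise the origin recognition complex (Orc1 to Orc6), the licensing factors Cdc6 and Cdt1 with their inhibitor Gmnn, the replicative helicase (Mcm2 to Mcm7), Mcm8 and Mcm10, the helicase activators Cdc45 and Gins1 to Gins4, polymerase and primase subunits, the clamp Pcna with its loader (Rfc1 to Rfc5), the single-strand binding proteins Rpa1 to Rpa3, the lagging-strand enzymes Fen1, Lig1 and Rnaseh2a, and 5 enzymes of nucleotide supply. All 47 were on the array. The 3 genes with a choice of probe sets, Pcna, Rpa3 and Tk1, were read from the brighter set.

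Before each S phase, the origin recognition complex, CDC6 and CDT1 load the MCM ring onto origins, and geminin, the product of Gmnn, holds CDT1 in check afterwards. CDC45 and the GINS complex turn the ring into an active helicase, primase and the polymerases copy both strands behind it, and the PCNA clamp, loaded by RFC, keeps the polymerases on the template. Ribonucleotide reductase and thymidylate synthase supply the building blocks. Many of these genes are known targets of E2F transcription factors.

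Gene expression was measured in RjHan:NMRI mouse blastocysts taken on day 3.5 post coitum. Per the labels, obese parents had been fed a high-fat diet for 9 weeks starting at 3 weeks of age, lean parents a control diet, and mating followed at 12 weeks, with all animals on the control diet during mating. Each array held the pooled lysate of 3 embryos of 1 sex from 1 mother, and 24 arrays formed 6 groups of 4, namely male and female embryos of an obese father and lean mother, of an obese mother and lean father, and of 2 lean parents. The high-fat cohort numbered 7 animals and the control cohort 14, and the parents of each pool are not given here, so pools of a group may share a parent and p-values then measure only the spread between these arrays. Arrays are called here by the numbers in their titles: 9 to 12 are males and 21 to 24 females of obese fathers, 5 to 8 males and 17 to 20 females of obese mothers, and 1 to 4 males and 13 to 16 females of lean parents.

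The promoters of 7 members are shown first, because these genes recur in the results below and show promoters with and without the motif words searched. Each line gives the 250 bases before the transcription start in the direction of transcription (RefSeq, GRCm38.p6), with the letters of E2F words and CCAAT boxes in capitals. The first 3 belong to the genes whose values stood out most on 1 array described below.
Mcm6, chr1:128359706-128359955, minus strand: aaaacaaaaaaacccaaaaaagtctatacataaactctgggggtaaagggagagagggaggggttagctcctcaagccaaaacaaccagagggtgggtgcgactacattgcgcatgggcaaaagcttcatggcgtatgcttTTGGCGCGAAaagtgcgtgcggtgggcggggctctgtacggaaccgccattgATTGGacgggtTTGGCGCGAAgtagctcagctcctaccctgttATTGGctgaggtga
Prim1, chr10:128014965-128015214, plus strand: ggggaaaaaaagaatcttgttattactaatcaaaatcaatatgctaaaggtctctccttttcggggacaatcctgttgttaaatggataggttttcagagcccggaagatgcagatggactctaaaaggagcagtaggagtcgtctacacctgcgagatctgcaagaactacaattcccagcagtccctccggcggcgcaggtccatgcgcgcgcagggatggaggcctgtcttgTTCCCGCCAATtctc
Rrm1, chr7:102441445-102441694, plus strand: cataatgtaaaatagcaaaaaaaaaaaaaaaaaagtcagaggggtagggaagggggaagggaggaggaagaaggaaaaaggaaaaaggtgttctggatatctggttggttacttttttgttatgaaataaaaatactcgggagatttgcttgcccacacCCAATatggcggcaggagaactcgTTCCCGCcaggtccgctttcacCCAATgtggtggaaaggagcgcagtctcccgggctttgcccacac
Mcm5, chr8:75109259-75109508, plus strand: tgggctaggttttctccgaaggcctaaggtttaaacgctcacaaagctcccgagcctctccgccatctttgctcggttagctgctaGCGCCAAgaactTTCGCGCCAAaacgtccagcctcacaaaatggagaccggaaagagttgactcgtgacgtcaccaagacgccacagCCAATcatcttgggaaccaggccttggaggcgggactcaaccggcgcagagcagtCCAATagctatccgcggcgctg
Pcna, chr2:132253181-132253430, minus strand: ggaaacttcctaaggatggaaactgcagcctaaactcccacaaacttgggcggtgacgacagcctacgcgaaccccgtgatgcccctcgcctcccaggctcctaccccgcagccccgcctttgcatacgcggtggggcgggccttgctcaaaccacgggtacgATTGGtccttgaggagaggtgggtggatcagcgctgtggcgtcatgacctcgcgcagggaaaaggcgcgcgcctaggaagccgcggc
Orc6, chr8:85299382-85299631, plus strand: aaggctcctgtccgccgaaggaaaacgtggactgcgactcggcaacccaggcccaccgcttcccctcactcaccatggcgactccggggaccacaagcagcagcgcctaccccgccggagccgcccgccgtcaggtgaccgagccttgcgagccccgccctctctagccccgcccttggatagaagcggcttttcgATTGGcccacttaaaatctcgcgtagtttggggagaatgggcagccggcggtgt
Rnaseh2a, chr8:84966077-84966326, minus strand: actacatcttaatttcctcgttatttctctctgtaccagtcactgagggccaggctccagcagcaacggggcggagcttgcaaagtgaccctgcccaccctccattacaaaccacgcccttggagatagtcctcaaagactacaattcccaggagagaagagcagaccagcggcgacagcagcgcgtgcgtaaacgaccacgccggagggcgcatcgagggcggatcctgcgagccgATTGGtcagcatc

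In these stretches Mcm6, which encodes an MCM ring subunit, held 2 E2F motifs that read as overlapping words on both strands and 2 CCAAT boxes. The E2F word of Prim1, which encodes the catalytic primase subunit, ran into its CCAAT box. Rrm1, the large subunit of ribonucleotide reductase, had 1 E2F word and 2 CCAAT boxes. Mcm5, another ring subunit, had E2F words upstream of 2 CCAAT boxes, whereas Pcna, Orc6 and Rnaseh2a had 1 CCAAT box each and no match to the E2F words searched.

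Over all members, promoters of 39 of 47 genes were found in the RefSeq table, in windows of 250 bases before to 50 after the start. The others were Gmnn, Mcm4, Gins1, Gins2, Gins4, Prim2, Pole and Rfc2. An E2F word (TTCCCGC, with TTCGCGC as another form, TTGCCGC as a further one and TTGGCGC as the last, on both strands) occurred in 24 of the 39 genes, or 61.5%, against 10.9% of the 27025 genes in the table. A CCAAT box (CCAAT, both strands) occurred in 24 of 39 genes, or 61.5%, against 41.1% of all genes. The cell cycle homology words TTTGAA and TTCGAA occurred in 7 of 39 genes, or 17.9%, against 21.7%. E2F words and CCAAT boxes overlapped in 3 members, and 8 members had 2 or more E2F matches in a window. A gene with several start sites counted as holding a motif where any of its windows did, and 6 members had more than 1 window. A match describes letters and not binding.

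**Figure D1:**
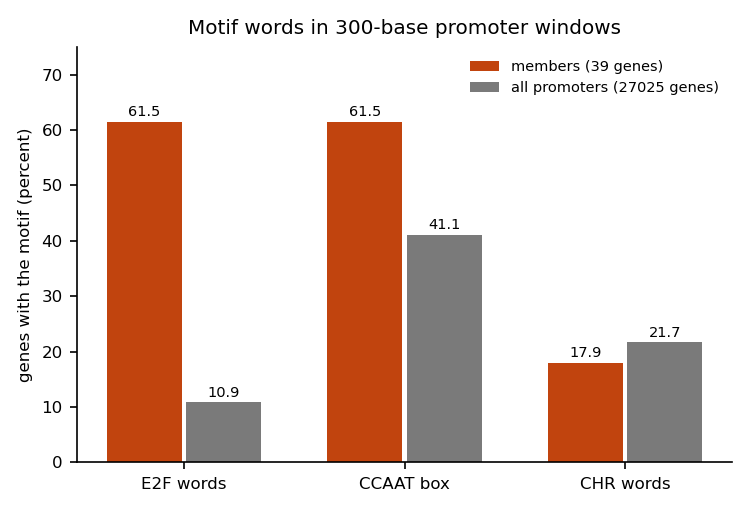
Percent of genes with a motif word in the window around the start (vertical axis) for the 39 members with a promoter and for all 27025 genes of the RefSeq table. E2F words stood at 61.5% of members against 10.9% of all genes, CCAAT boxes at 61.5% against 41.1%, and the cell cycle homology words at 17.9% against 21.7%.

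Blastocyst identity was checked on lineage markers, in log2 intensity. The trophectoderm keratin Krt8 ranged over the 24 arrays between 6.13 and 8.995 with a median of 6.77, and the pluripotency gene Dppa5a between 5.75 and 11.01 with a median of 9.64. Of 11 trophectoderm markers 9, and of 9 inner cell mass markers 7, exceeded the median of the whole table (2.56) on all 24 arrays, whereas 0 of 3 blood and 1 of 5 uterine or oviductal markers did. Of 8 primitive endoderm markers 5 did. Of 9 cumulus and granulosa cell markers 4 did, and the mean of those 9 on an array lay between 2.49 and 3.23 in all groups. Below that median on at least 1 array were the trophectoderm genes Krt7 (lowest 2.19) and Elf5 (lowest 1.79). So were the inner cell mass genes Sox2 (lowest 2.36) and Esrrb (lowest 2.10), and the primitive endoderm genes Gata4 (2.52), Pdgfra (2.24) and Lama1 (2.24). Brightness also depends on the probes, so these counts do not rank cell types. In these pooled embryos, fewer cells of a type and less RNA per cell cannot be told apart.

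The table median of 2.56 was also used to set aside dim genes. Tests covered the genes that exceeded it on 4 or more arrays, which held for 38 members and for 13311 genes in all. The other 9 members, Orc1, Orc3, Orc4, Mcm3, Prim2, Pold3, Pole, Pole2 and Rpa1, were too dim. Orc2, Rfc2, Gins3 and Mcm8 passed with 6, 8, 10 and 11 arrays above the median. In contrast, 22 members, among them Mcm2, Mcm4 to Mcm7, Gmnn, Gins2, Gins4, Pcna, Fen1, Rrm2, Tyms, Tk1 and Dut, exceeded it on all 24 arrays, which 30.6% of all genes did. Brightness depends on each set's own probes, so levels are compared only within a gene. The used set of Rpa3 correlated with that gene's other set at r = 0.372 over the 24 arrays, and that of Tk1 at r = -0.155, so both genes are uncertain, whereas the 2 sets of Pcna correlated at r = 0.999.

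One array stood apart for these genes. On array 22, of a female pool of an obese father, 26 of 47 members (55.3%) had their highest value of all 24 arrays, against 13.7% of all genes. The median member lay 1.10 log2 units above its mean on the other 23 arrays there, while the median tested gene lay 0.25 below (median deviation -0.25). Array 22 also had the widest signal spread, the standard deviation of log2 values over all probe sets, at 1.81. Array 12, of a male pool of an obese father, followed with a spread of 1.72. It had 6 members at their highest value (12.8%, against 4.50% of all genes), and its median member deviated by 0.19. On the remaining 22 arrays the median member deviated by between -0.25 and 0.11.

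The genes that were highest on array 22 came from most steps of the process, though not from the 3 RPA subunits or from Mcm8 and Mcm10, and those named here were chosen after their values were seen. Mcm6 read 6.79 there and between 2.58 and 3.96 on the others, a deviation of 3.48. Prim1 read 6.23 against 2.27 to 3.50, a deviation of 3.30. Rrm1 read 6.002 against 1.95 to 4.23, a deviation of 3.24. These are log2 units, so each of the 3 deviations exceeded the standard deviation of its gene over the other 23 arrays, which was 0.30 for Mcm6, 0.36 for Prim1 and 0.49 for Rrm1. Pcna read 8.27 against 3.68 to 7.74, Rrm2, the small subunit of the reductase, 6.07 against 2.84 to 4.79, Gmnn 6.09 against 3.399 to 4.48, and Orc6, the smallest origin recognition subunit, 5.70 against 2.46 to 5.17. Array 12 exceeded array 22 for the GINS subunits Gins1 (6.97 against 5.96) and Gins4 (7.32 against 6.88) and for the single-strand binding subunit Rpa2 (6.07 against 4.50).

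Not every member was raised on array 22. Cdt1 read 2.80, a deviation of 0.01, although its partner Cdc6 read 4.30, a deviation of 1.27. Of the polymerase delta subunits, the catalytic Pold1 deviated by -0.33 and Pold2 by -0.02, while Pold3 deviated by 1.30. The polymerase alpha accessory subunit Pola2 deviated by -0.08, in contrast to the primase subunits Prim1 and Prim2 (1.24). Gins3 deviated by -0.48, and Tyms, the thymidylate synthase gene, by 0.23. Mcm2 deviated by 0.35 and was the only subunit of the MCM ring that was not highest on this array.

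Other replication genes on array 22 were described with 3 lists outside the members. Of 35 further fork and origin genes 17 were highest on this array, with a median deviation of 0.72. Of 31 further genes of nucleotide synthesis 13 were, with a median of 0.53, and of 32 genes of S-phase entry and checkpoint 12 were, with a median of 0.12. Markers of the lineages moved there too. The median deviation was 0.70 over 11 trophectoderm markers and 1.39 over 9 inner cell mass markers, -0.12 over 8 primitive endoderm markers and -0.52 over 9 cumulus and granulosa cell markers. The part of the spread and of the lineage markers in these deviations was not tested. In each comparison with females of obese fathers, the members' count above 0 and their median are given with and without array 22, and so are the single genes that are named.

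**Figure D2:**
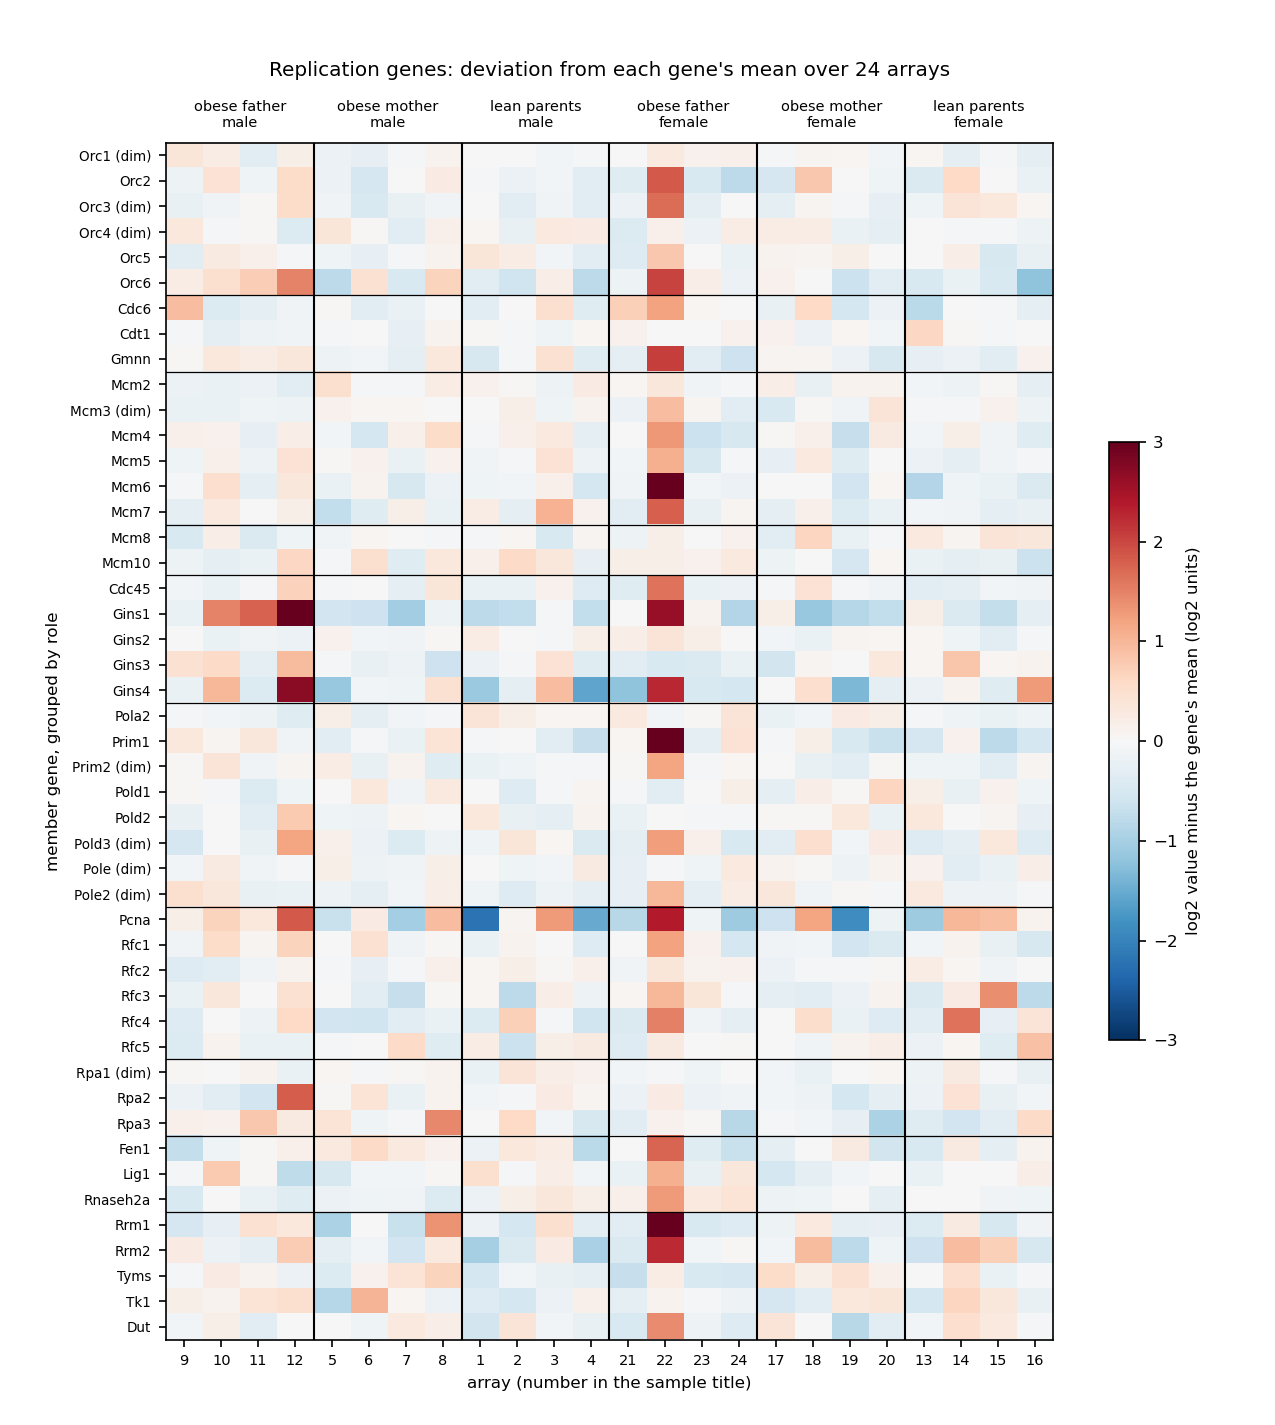
Log2 value of each of the 47 members minus that gene's mean over 24 arrays (colour, shades limited at 3 log2 units on either side), with genes in rows by role and arrays in columns by group. The column of array 22 is red for most members, from the origin recognition complex to nucleotide supply, and array 12 is red for Gins1, Gins4 and Rpa2.

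The position of the members on an array went along with its spread. Over the 24 arrays, the mean of the 38 tested members and the spread correlated at r = 0.904 (Spearman's rho = 0.922). The correlation was r = 0.854 once the 2 arrays with the most extreme spread were left out. The members belong to the same arrays whose spread was taken, so this is a description. By gene, 22 members had r above 0.5 with the spread, led by Pcna at 0.925, and 9 had r below 0, with Pola2 lowest at -0.65. These correlations were not computed for all genes, so they do not set the members apart from other genes. The mean spread was 1.56 ± 0.11 in males of obese fathers, 1.43 ± 0.10 in males of obese mothers and 1.38 ± 0.12 in males of lean parents (SD, n = 4 each). In females it was 1.47 ± 0.23 for obese fathers, 1.40 ± 0.09 for obese mothers and 1.46 ± 0.08 for lean parents.

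**Figure D3:**
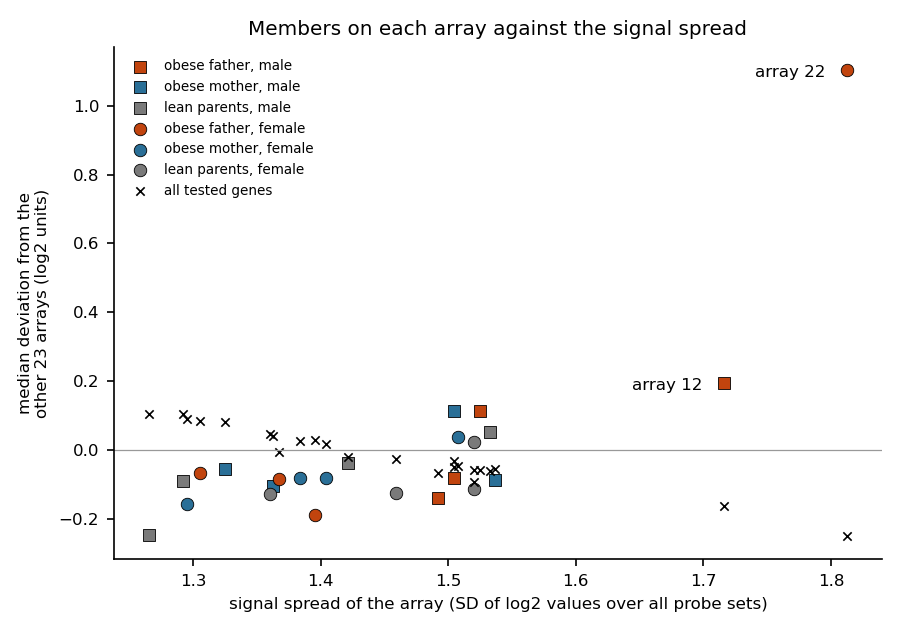
Median deviation of the members (coloured points, by group and sex) and of all tested genes (crosses) from their means on the other 23 arrays, in log2 units, against the signal spread of each array. Array 22 has the widest spread, 1.81, and the highest median deviation of the members, 1.10, with its cross at -0.25.

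Among themselves, the members varied unequally over the 24 arrays. The standard deviation exceeded 0.5 log2 units in 15 of 47 members, against 8.85% of all genes and 12.7% of tested genes. It was largest for Gins1 (1.20), Pcna (1.16) and Gins4 (1.06). Without array 22 it exceeded 0.5 in 7 members, against 6.47% of all genes and 9.41% of tested genes. It stayed under 0.2 in 6 members, among them Gins2 (0.16) and Cdt1 (0.17). The GINS complex thus held both ends, since Gins2 ranged only between 4.69 and 5.41 while Gins1 ranged between 2.22 and 6.97. The highest and lowest array differed by more than 2 log2 units in 20 members, against 10.4% of all genes, and array 22 was the highest in 14 of these. Without array 22 the number was 9, against 6.77% of all genes.

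The comparison of males of obese fathers with males of lean parents asks whether paternal diet went along with replication gene expression in sons. No member passed the test. In limma's moderated test over 13311 genes, 0 of 38 members had a Benjamini-Hochberg adjusted p under 0.05, and 1 gene of all did (0.00751%). The smallest adjusted p among members was 0.316. At an unadjusted p under 0.05, 2 members were higher and 4 lower, against 4.30% of tested genes higher and 10.4% lower. Of the 38 members 24 had a log2 fold change above 0, and 29 of 47 without the filter, against 33.3% of tested genes. The members' median was 0.10 and that of all tested genes -0.11. The members' median was 0.04 without array 12 and 0.20 without array 9.

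The helicase activators held the largest difference. Gins1 read 3.15, 4.84, 5.13 and 6.97 in males of obese fathers, against 2.57, 2.62, 3.31 and 2.61 in males of lean parents. Array 9 lay within the range of the lean-parent arrays, and the other 3 above it. Its mean was 5.02 ± 1.56, against 2.78 ± 0.36 (SD, n = 4 each), and the log2 fold change was 2.24 ± 0.62 (SE, unadjusted p = 0.0015, adjusted p = 0.316 in limma). Without array 12 the value was 1.60, and with the spread of each array as a covariate it was 1.37. Gins3 read 2.97, 3.10, 2.24 and 3.47 in males of obese fathers and 2.35, 2.47, 2.94 and 2.16 in males of lean parents, a log2 fold change of 0.47 (adjusted p = 0.347 in limma). Gins4, a further subunit of the complex, is named outside the rule for members described by array. It read 4.42, 5.61, 4.19 and 7.32 in males of obese fathers and 3.51, 4.34, 5.54 and 3.02 in males of lean parents. Its log2 fold change was 1.28 ± 0.71 (SE, adjusted p = 0.368 in limma), and 0.01 with the spread as a covariate. The groups overlapped for Gins3 and Gins4. Gins2 had a log2 fold change of -0.22.

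At the origin, Orc6 read 3.90, 4.15, 4.41 and 5.17 in males of obese fathers, against 3.33, 3.07, 3.87 and 2.89 in males of lean parents. All 4 arrays of obese fathers lay above all 4 of lean parents, the only such member in this direction, and 1.91% of tested genes did so. Its log2 fold change was 1.12 ± 0.41 (SE, adjusted p = 0.316 in limma), and 0.37 with the spread as a covariate. The licensing inhibitor Gmnn read 4.05, 4.35, 4.25 and 4.36 in males of obese fathers and 3.54, 3.96, 4.48 and 3.67 in males of lean parents, with overlap through array 3. Cdt1, its target, read 2.73, 2.53, 2.63 and 2.69 in males of obese fathers and 2.83, 2.75, 2.67 and 2.85 in males of lean parents. The log2 fold changes were 0.34 for Gmnn (adjusted p = 0.626) and -0.13 for Cdt1 (adjusted p = 0.569).

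Subunits of the MCM ring lay on both sides of 0. Mcm2 read 3.11, 3.07, 3.11 and 2.95 in males of obese fathers, against 3.42, 3.32, 3.12 and 3.53 in males of lean parents. All 4 arrays of obese fathers were below all 4 of lean parents, by as little as the gap between 3.11 and 3.12, and the log2 fold change was -0.28 ± 0.14 (SE, adjusted p = 0.338 in limma). In this direction 2 tested members separated completely, Mcm2 and Pola2, against 6.63% of tested genes. Mcm4 read 3.56, 3.55, 3.18 and 3.61 in males of obese fathers and 3.38, 3.56, 3.70 and 3.11 in males of lean parents (log2 fold change 0.03, adjusted p = 0.960). Mcm5 read 3.16, 3.44, 3.11 and 3.70 in males of obese fathers and 3.17, 3.25, 3.72 and 3.12 in males of lean parents (log2 fold change 0.04, adjusted p = 0.938). The arrays of both groups covered nearly the same range in each gene.

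Mcm6 and Mcm7 overlapped between the groups. Mcm6 read 3.42, 3.96, 3.15 and 3.78 in males of obese fathers and 3.31, 3.35, 3.61 and 2.93 in males of lean parents, a log2 fold change of 0.28 ± 0.50 (SE, adjusted p = 0.773). Mcm7 read 3.08, 3.66, 3.35 and 3.53 in males of obese fathers and 3.59, 3.08, 4.42 and 3.50 in males of lean parents, a log2 fold change of -0.24 ± 0.34 (SE, adjusted p = 0.71). The value of 4.42 on array 3 decided the sign for Mcm7, whose log2 fold change was 0.02 without that array. Mcm3, too dim to be tested, read 2.21, 2.20, 2.26 and 2.24 in males of obese fathers, just below all of 2.40, 2.56, 2.27 and 2.51 in males of lean parents. Of the 6 ring subunits 3 had a log2 fold change above 0.

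Of the synthesis machinery, Pola2 read 2.57, 2.54, 2.45 and 2.24 in males of obese fathers and 2.99, 2.77, 2.66 and 2.66 in males of lean parents. Its groups did not overlap, and the log2 fold change was -0.32 ± 0.13 (SE, adjusted p = 0.316 in limma). Pcna, the clamp, read 6.08, 6.57, 6.21 and 7.74 in males of obese fathers and 3.68, 5.98, 7.18 and 4.37 in males of lean parents. The lean-parent arrays spanned more than the difference between the means of 6.65 ± 0.75 and 5.30 ± 1.58 (SD, n = 4 each), and the log2 fold change of 1.35 had a standard error of 0.79 (adjusted p = 0.382). The clamp loader subunit Rfc2 read 2.08, 2.14, 2.38 and 2.59 in males of obese fathers and 2.54, 2.66, 2.51 and 2.62 in males of lean parents, with a log2 fold change of -0.28 (adjusted p = 0.323). Rnaseh2a, the catalytic subunit of the nuclease that removes ribonucleotides from DNA, read 2.58, 3.02, 2.85 and 2.69 in males of obese fathers and 2.86, 3.21, 3.38 and 3.21 in males of lean parents, with a log2 fold change of -0.38 (adjusted p = 0.335) and overlap through array 1.

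All 5 nucleotide supply genes had log2 fold changes above 0, between 0.06 and 0.67, and none passed the test. Rrm2 read 4.07, 3.66, 3.55 and 4.60 in males of obese fathers and 2.84, 3.396, 4.09 and 2.87 in males of lean parents, a log2 fold change of 0.67 ± 0.49 (SE, adjusted p = 0.464). Rrm1 read 2.40, 2.65, 3.35 and 3.22 in males of obese fathers and 2.71, 2.37, 3.38 and 2.58 in males of lean parents, a log2 fold change of 0.14 ± 0.58 (SE, adjusted p = 0.906). Tyms read 4.29, 4.58, 4.46 and 4.16 in males of obese fathers and 3.83, 4.26, 4.12 and 4.06 in males of lean parents, a log2 fold change of 0.31 ± 0.21 (SE, adjusted p = 0.448). Arrays overlapped in each of these genes.

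The spread of the arrays moved with this comparison, at 1.56 in males of obese fathers and 1.38 in males of lean parents. With the spread as a covariate, 10 of 38 members had a log2 fold change above 0, against 46.6% of tested genes, and the members' median was -0.24, while the median of all genes was -0.02. Of the genes given above, Mcm4, Mcm5, Mcm6, Gmnn, Pcna, Rrm1 and Rrm2 then had values below 0. The median of all genes itself was -0.11 as deposited and -0.03 after each array was centred on its median, so the members' fold changes stand against a shifted background. Marker lists differed as well. The mean of 11 trophectoderm markers lay between 4.70 and 5.28 by array in males of obese fathers, against 3.95 to 4.73 in males of lean parents, that of 9 inner cell mass markers between 4.82 and 5.54, against 3.79 to 5.02, and that of 9 cumulus and granulosa cell markers between 2.53 and 2.85, against 2.81 to 3.23. Their part in the comparison was not tested.

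**Figure D4:**
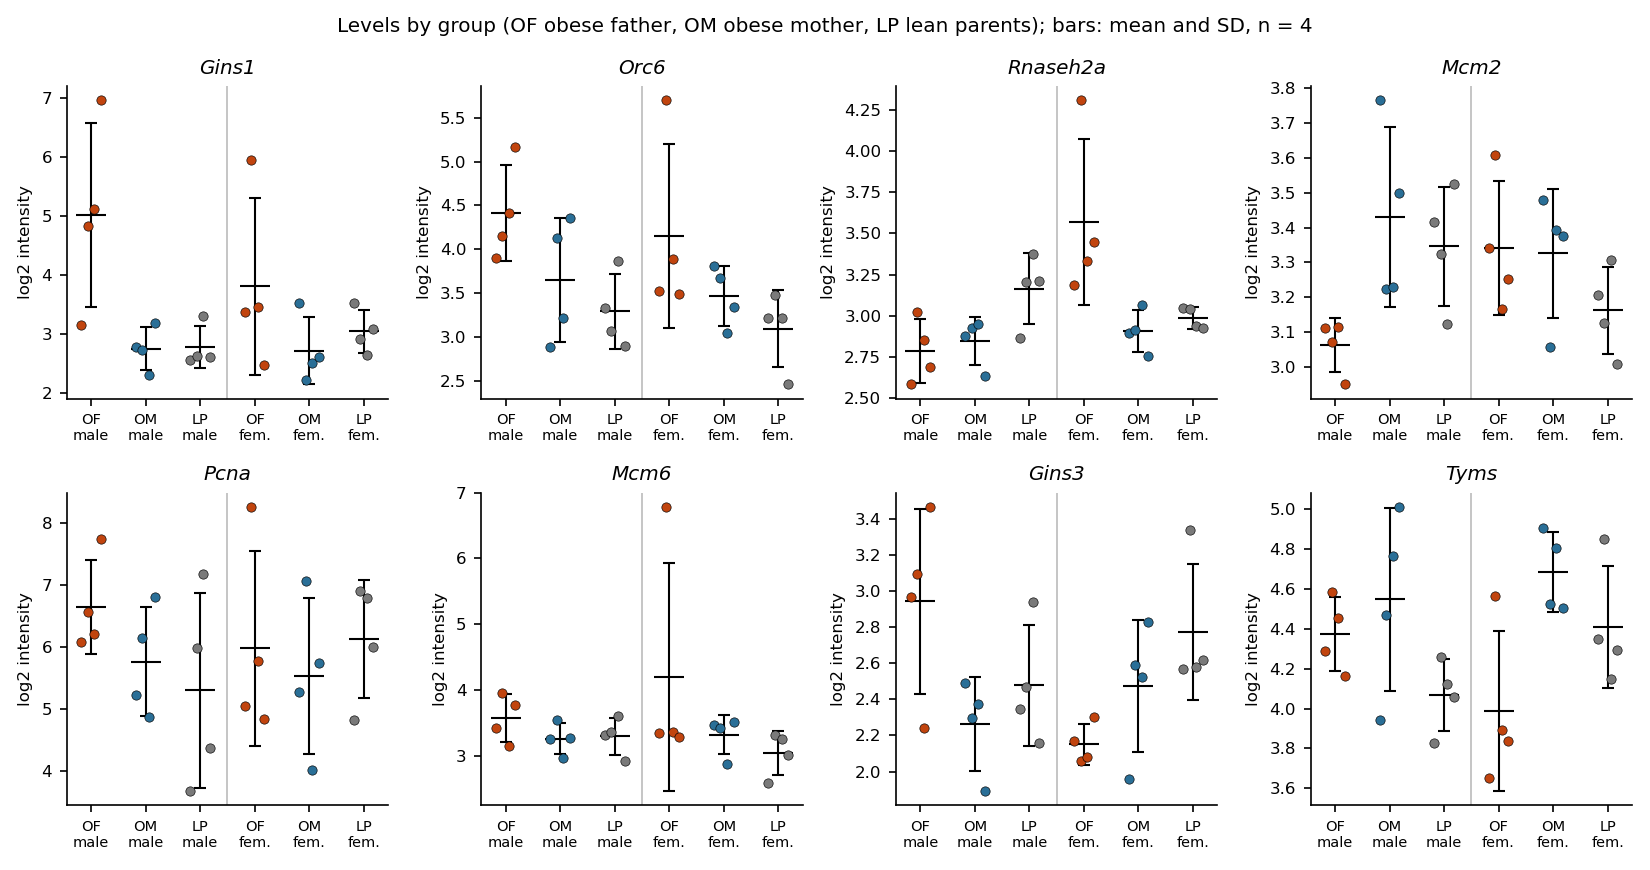
Log2 intensity of 8 members by group, with a point for each array and bars for the mean and SD (n = 4), males at the left and females at the right of each panel. Gins1 is above the lean-parent range on 3 of 4 arrays of males of obese fathers, and single high points in females of obese fathers, such as 6.79 for Mcm6 and 8.27 for Pcna, belong to array 22.

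Replication genes outside the members were described in males of obese fathers from 3 lists. Of all tested genes, 33.3% had a log2 fold change above 0, and 4.30% were higher and 10.4% lower at an unadjusted p under 0.05. Of 28 tested fork and origin partners 15 had a log2 fold change above 0, with a median of 0.06, and 0 passed the test (1 was higher and 1 lower at an unadjusted p under 0.05). Top1, a topoisomerase that relaxes DNA ahead of the fork, averaged 3.89 in males of obese fathers and 2.81 in males of lean parents (log2 fold change 1.08, adjusted p = 0.320). The accessory polymerase subunit Pole3 had a log2 fold change of 0.89, the MCM-binding protein gene Mcmbp of 0.51, the telomere replication gene Ctc1 of -0.38, Mcm9 of -0.24 and the chromatin assembly gene Chaf1b of -0.11. Of 27 tested genes of nucleotide synthesis 18 were above 0, with a median of 0.16 and 0 passing the test (2 were higher and 1 lower at an unadjusted p under 0.05). There the purine synthesis enzymes Atic and Pfas had log2 fold changes of 0.52 and 0.38, the nucleoside diphosphate kinase Nme1 of 1.004, the pyrimidine enzyme Cad of -0.36, Shmt1 of -0.32 and the deoxyguanosine kinase Dguok of -0.30.

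Of 24 tested genes of S-phase entry and checkpoint 12 were above 0, with a median of -0.07 and 0 passing the test (2 were higher and 2 lower at an unadjusted p under 0.05). Ccna2, the S-phase cyclin, averaged 5.23 in males of obese fathers and 4.00 in males of lean parents (log2 fold change 1.23, adjusted p = 0.316), and Cul4a and the kinase gene Wee1 had log2 fold changes of 0.32 and 0.38. The transcription factor gene E2f1 averaged 3.04 in males of obese fathers and 3.37 in males of lean parents (log2 fold change -0.34, adjusted p = 0.318), beside -0.36 for the pocket protein gene Rbl2 and -0.24 for E2f8. With the spread as a covariate the log2 fold change was 0.35 for Ccna2, 0.26 for Top1 and -0.14 for E2f1. By list, 10 of 28 fork and origin partners, 9 of 27 nucleotide synthesis genes and 8 of 24 S-phase genes were then above 0. This stood against 46.6% of tested genes. The medians of these lists were -0.10, -0.10 and -0.13, in the same order.

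In females of obese fathers against females of lean parents, the members' values turned on array 22. With all arrays, 24 of 38 members had a log2 fold change above 0 (32 of 47 without the filter, and 18 of 47 when array 22 was left out too), against 54.9% of tested genes, and their median was 0.21 against 0.02 for all tested genes. Without array 22, 15 of 38 were above 0, against 62.7% of tested genes, and the members' median was -0.08 against 0.06 for all tested genes. The test called 0 members and 0 genes of all (0%), with every member's adjusted p at 1.0 in limma and the smallest at 0.789 without array 22. At an unadjusted p under 0.05, 8 members were higher and 1 lower, against 1.95% of tested genes higher and 0.886% lower. Without array 22, 4 members were higher and 3 lower at that threshold, against 4.31% and 1.68% of tested genes.

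Rnaseh2a had the smallest unadjusted p. It read 3.19, 4.31, 3.33 and 3.45 in females of obese fathers, against 3.05, 3.04, 2.94 and 2.92 in females of lean parents. All 4 arrays of obese fathers lay above all 4 of lean parents, array 22 farthest, and the log2 fold change was 0.58 ± 0.18 (SE, unadjusted p = 0.00367), or 0.33 without array 22. Across tested genes, 0.811% separated completely in this direction, and 3 members did, the others being Orc6 and Mcm10, which are named after their values were seen. Orc6 read 3.52, 5.70, 3.88 and 3.49 in females of obese fathers and 3.22, 3.48, 3.21 and 2.46 in females of lean parents, a log2 fold change of 1.06, which was 0.54 without array 22. Mcm10, a scaffold of the replication fork, read 3.42, 3.43, 3.36 and 3.54 in females of obese fathers and 3.03, 2.96, 3.03 and 2.58 in females of lean parents, a log2 fold change of 0.54 with array 22 and also without it.

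Gins2 and Prim1 followed. Gins2 read 5.21, 5.41, 5.18 and 5.02 in females of obese fathers and 5.07, 4.89, 4.69 and 4.95 in females of lean parents, with a log2 fold change of 0.31, or 0.24 without array 22. Prim1 read 3.12, 6.23, 2.78 and 3.50 in females of obese fathers and 2.55, 3.19, 2.27 and 2.53 in females of lean parents, with a log2 fold change of 1.27 that was 0.49 without array 22. In the other direction, Gins3 read 2.17, 2.06, 2.08 and 2.30 in females of obese fathers and 2.57, 3.34, 2.58 and 2.62 in females of lean parents. Its groups did not overlap, as in 0.413% of tested genes, and the log2 fold change was -0.62 ± 0.24 (SE), or -0.59 without array 22. Tyms and Mcm8, a helicase of recombination repair, had log2 fold changes of -0.42 and -0.25, which were -0.62 and -0.29 without array 22.

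By role, dim genes included, all 6 MCM ring subunits and all 6 origin recognition subunits had log2 fold changes above 0 in these females, with medians of 0.22 and 0.16. Without array 22, 3 of the 6 MCM ring subunits and 2 of the 6 origin recognition subunits were above 0, with medians of -0.02 and -0.07. The 3 RPA subunits lay between -0.07 and -0.03, and between -0.20 and -0.04 without array 22. Of the outside lists, 23 of 28 fork and origin partners were above 0, against 54.9% of tested genes. Their median was 0.22, which was 0.08 without array 22. Genes of nucleotide synthesis stood at 20 of 27 with a median of 0.10 (0.05 without array 22), and genes of S-phase entry at 15 of 24 with a median of 0.06 (0.03 without array 22). The test called 0 genes of these lists.

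**Figure D5:**
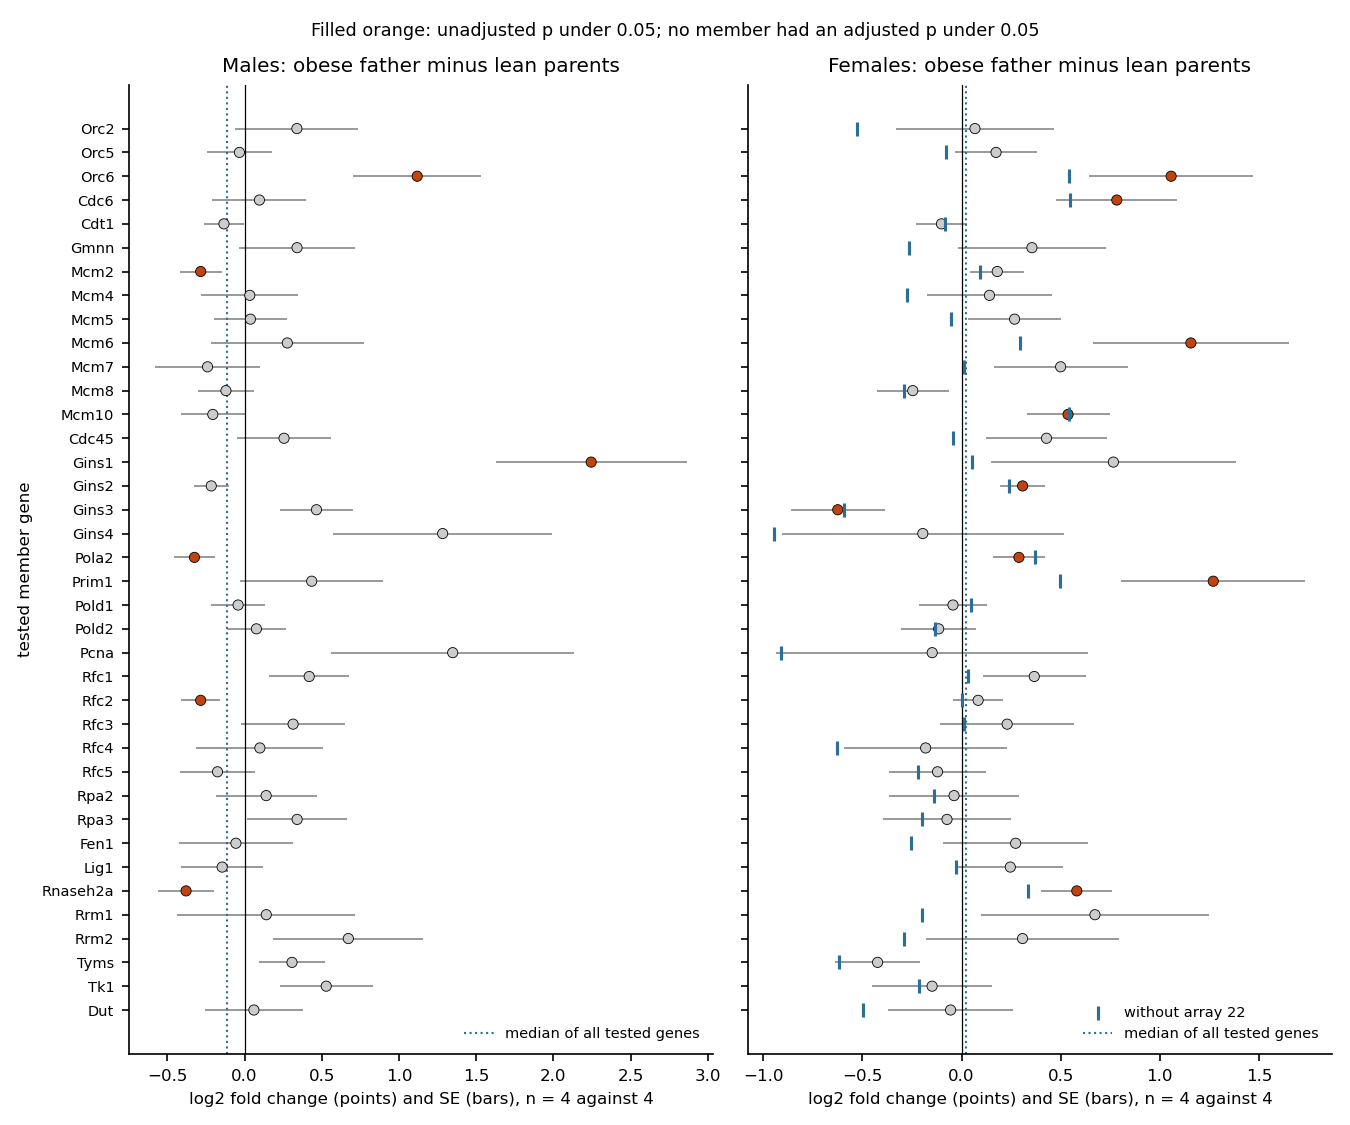
Log2 fold change of obese-father over lean-parent embryos for the 38 tested members, with its SE, in males (left) and females (right). Orange points have an unadjusted p under 0.05, the dotted line is the median of all tested genes, and the blue ticks in the female panel are the values without array 22, which lie left of most points there.

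In embryos of obese mothers the members stayed near those of lean parents, with which they were compared on the same lean-parent arrays as the embryos of obese fathers. In males, 0 members and 0 genes of all (0%) passed the test, 20 of 38 members had a log2 fold change above 0 against 46.1% of tested genes, and the members' median was 0.04 against -0.01. Only Tyms had an unadjusted p under 0.05 in the higher direction, against 0.601% of tested genes, and 0 members in the lower, against 1.10%. It read 3.94, 4.47, 4.76 and 5.01 in males of obese mothers, against 3.83, 4.26, 4.12 and 4.06 in males of lean parents, a log2 fold change of 0.48 ± 0.21 (SE, unadjusted p = 0.034, adjusted p = 1.0 in limma). Array 5 fell within the lean-parent range and the other 3 above it. Pold1 had a log2 fold change of 0.23, Rnaseh2a of -0.32 and Pola2 of -0.23.

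In females of obese mothers, 0 members and 0 genes of all (0%) passed the test, and 0 members had an unadjusted p under 0.05 against 1.65% of tested genes higher and 0.541% lower. Of 38 members 18 were above 0 against 61.7% of tested genes, and the members' median was -0.03 against 0.05. Tyms again had the smallest unadjusted p among higher members, with 4.91, 4.52, 4.80 and 4.50 in females of obese mothers and 4.35, 4.85, 4.15 and 4.29 in females of lean parents, a log2 fold change of 0.27 (adjusted p = 0.999). Pola2 had a log2 fold change of 0.16, Mcm8 of -0.27 and Cdt1 of -0.18. All 6 clamp and loader genes had log2 fold changes below 0, between -0.60 and -0.06.

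Embryos of obese mothers were also set against those of obese fathers. In males, 0 members and 1 gene of all (0.00751%) passed the test, 14 of 38 members were above 0 against 65.1% of tested genes, and the members' median was -0.09 against 0.09. Without array 12 the members' median was 0.017, and without array 8 it was -0.20. Once the spread entered as a covariate, 28 of 38 members were above 0, against 7572 of 13311 tested genes. The members' median was then 0.18, against 0.03 for all tested genes. At an unadjusted p under 0.05, 1 member was higher and 2 lower, against 6.27% and 2.08% of tested genes. Gins1 read 2.77, 2.73, 2.30 and 3.19 in males of obese mothers, against 3.15, 4.84, 5.13 and 6.97 in males of obese fathers, a log2 fold change of -2.27 ± 0.62 (SE, unadjusted p = 0.00134, adjusted p = 0.573 in limma). Array 8 lay just above array 9, and otherwise the groups were apart. Gins3 had a log2 fold change of -0.68. Mcm2 read 3.77, 3.23, 3.23 and 3.50 in males of obese mothers, above all 4 males of obese fathers (3.11, 3.07, 3.11 and 2.95), with a log2 fold change of 0.37 ± 0.14 (SE, adjusted p = 0.573), and 5.57% of tested genes separated in this direction. Pold1 had a log2 fold change of 0.27.

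In females, 0 members and 0 genes of all (0%) passed the test between obese mothers and obese fathers. Only 7 of 38 members were above 0 against 55.5% of tested genes, with a median of -0.22 against 0.03, but 22 of 38 were above 0 without array 22 against 6256 of 13311 tested genes, with a median of 0.09 against -0.01. At an unadjusted p under 0.05 and with all arrays, 1 member was higher and 2 lower, against 1.97% and 1.28% of tested genes, and without array 22 the numbers were 2 and 1, against 1.09% and 1.56%. Rnaseh2a read 2.89, 2.91, 3.06 and 2.76 in females of obese mothers, below all 4 females of obese fathers (3.19, 4.31, 3.33 and 3.45), as in 0.684% of tested genes, with a log2 fold change of -0.66 ± 0.18 (SE, unadjusted p = 0.00125, adjusted p = 0.975 in limma) and of -0.42 without array 22. Tyms read 4.91, 4.52, 4.80 and 4.50 in females of obese mothers and 3.65, 4.57, 3.89 and 3.84 in females of obese fathers, with a log2 fold change of 0.70 ± 0.21 (SE), or 0.89 without array 22. Prim1 and Gins3 had log2 fold changes of -1.08 and 0.32, which were -0.31 and 0.29 without array 22.

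Male and female embryos were compared for each kind of parents. With obese fathers, 0 members and 1 gene of all (0.00751%) passed the test, and 14 of 38 members were higher in males against 35.3% of tested genes. In males, 1 member was higher and 4 lower at an unadjusted p under 0.05, against 1.47% and 3.94% of tested genes. Without array 22, 27 of 38 members were higher in males against 4504 of 13311 tested genes, and at that threshold 7 were higher and 3 lower, against 7.05% and 15.8% of tested genes. Rnaseh2a came nearest, with 2.58, 3.02, 2.85 and 2.69 in males and 3.19, 4.31, 3.33 and 3.45 in females. All 4 males lay below all 4 females, as in 1.43% of tested genes, and the log2 fold change was -0.78 ± 0.18 (SE, unadjusted p = 0.000242, adjusted p = 0.460 in limma). With the spread as a covariate it was called, at -0.88 (adjusted p = 0.0485 in limma), as 1 of 4 genes called among 13311. The same covariate fit without the filter on dim genes called 0 members and 0 genes. The smallest adjusted p among members was then 0.0562 in limma. Without array 22 and without the covariate, Rnaseh2a stood at -0.54 (adjusted p = 0.102). Gins2 read 5.0003, 4.83, 4.90 and 4.83 in males and 5.21, 5.41, 5.18 and 5.02 in females, which did not overlap (log2 fold change -0.32, or -0.25 without array 22). Gins3 had a log2 fold change of 0.79, or 0.76 without array 22. Gins1 had 1.21, which was 0.56 without array 12 and 1.93 without array 22. The members' median was -0.16, and 0.26 without array 22.

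With obese mothers and with lean parents, 0 members and 0 genes of all (0%) passed the test between the sexes. With obese mothers 21 of 38 members were higher in males, against 47.3% of tested genes. There 1 member was higher and 0 lower at an unadjusted p under 0.05, each against 0.706% of tested genes. Rpa3 read 4.51, 3.97, 4.05 and 5.54 in males and 4.07, 4.01, 3.85 and 3.15 in females, a log2 fold change of 0.74 (unadjusted p = 0.0321). Rfc1, Rfc4 and Gins3 had log2 fold changes of 0.39, -0.41 and -0.21. With lean parents 21 of 38 members were higher in males, against 62.6% of tested genes, and 2 were higher and 0 lower at an unadjusted p under 0.05, against 2.52% and 0.849%. Mcm10 read 3.39, 3.80, 3.58 and 3.003 in males and 3.03, 2.96, 3.03 and 2.58 in females, a log2 fold change of 0.54 (unadjusted p = 0.0165). Pola2 read 2.99, 2.77, 2.66 and 2.66 in males, above all 4 females (2.56, 2.47, 2.41 and 2.48), a log2 fold change of 0.29 (unadjusted p = 0.0392), while 1.71% of tested genes separated in this direction. Mcm8 and Tyms had log2 fold changes of -0.36 and -0.34.

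Whether the obese father's effect differed between the sexes was tested as an interaction, and 0 members and 0 genes of all (0%) passed. Of the members, 2 had a difference above 0 and 5 below 0 at an unadjusted p under 0.05, against 1.86% and 5.68% of tested genes. Without array 22, 7 were above 0 and 4 below 0 at that threshold, against 6.97% and 16.96%. The members' median difference was -0.02 with 18 of 38 above 0, against 4346 of 13311 tested genes. Without array 22 it was 0.25 with 25 of 38 above 0, against 4325 of 13311. Rnaseh2a had the smallest p, since its log2 fold change was -0.38 in males and 0.58 in females, a difference of -0.96 ± 0.25 (SE, unadjusted p = 0.000994, adjusted p = 0.654 in limma), or -0.71 without array 22. Gins3 went the other way, with 0.47 in males and -0.62 in females, a difference of 1.09 ± 0.34 (SE, adjusted p = 0.654), or 1.06 without array 22. Gins2 differed by -0.52 and Tyms by 0.73, and by -0.46 and 0.92 without array 22. For obese mothers, 0 members and 0 genes of all (0%) passed, 0 members had an unadjusted p under 0.05 (against 0.819% of tested genes above 0 and 1.77% below), and the differences for Mcm8, Rpa3, Pola2 and Mcm7 were 0.33, 0.57, -0.39 and -0.55.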

How the data were processed

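Pooled lysates of 3 embryos were amplified, labelled with biotin and hybridised to 1 Affymetrix array each, per the labels' protocols. Per the submitters' processing notes, RMA in the affy package gave the deposited log2 intensities. Neither versions nor a build or probe-set definition are given in the sources used here. All 24 columns had a sample (0 were left over), and each held 35556 probe sets. Names came from the platform annotation, where 21789 had 1 symbol, 1621 several and 12146 none, and the last 2 kinds were not named.

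The group means of 6 groups were fitted to all 24 arrays with limma 3.58.1 (R 4.3.3), without covariates, and p-values were adjusted by Benjamini-Hochberg over the 13311 genes tested. Genes with an adjusted p under 0.05 were called. The fit was tested on simulated data. The number of arrays limits the precision. After RMA the arrays had unequal signal spread, so the spread entered as an alternative covariate. What the spread does to bright and to dim genes was not tested. Other alternatives changed the filter, the probe-set rule, the prior, the array weights, the scaling, the groups fitted, the threshold and the arrays included. Motifs were searched as exact letters with Python 3.11.15 in RefSeq promoters (GRCm38.p6).

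The members, lists and tests were chosen with earlier results of these data known. Members described by array are Mcm2 to Mcm7, Cdt1, Gmnn, Pcna, Rrm1, Rrm2 and Tyms in males of obese fathers against lean parents, every called member, and up to 3 tested members per direction with the smallest unadjusted p (2 with an obese mother or between the sexes, and 3 of each outside list in males of obese fathers). Mcm3 of these was too dim to be tested. Outside this rule, Gins4 in males and Orc6 and Mcm10 in females of obese fathers are also described by array.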

Additional observations from a re-analysis of the deposited data

Results flagged for a closer look

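Within each group of 4 arrays, a member's highest or lowest value was singled out when its gap to the nearest other array, divided by the range of the group, exceeded Dixon's critical value for 4 samples. Over the 47 members and the median of the 38 tested members, 288 groups of 4 values were examined and 24 stood out (8.33%). The members share arrays and their median is drawn from them, so this share cannot be held against a chance rate. The share over all genes was not computed.

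Of these, 12 were the high values of array 22 among females of obese fathers. They were 4.48 for Cdc45, 4.96 for Dut, 6.09 for Gmnn, 6.79 for Mcm6, 4.201 for Orc2, 3.84 for Orc3, 3.50 for Prim2, 4.40 for Rfc4, 4.50 for Rpa2, 6.002 for Rrm1 and 6.07 for Rrm2, in log2 intensity. They also included the median of the 38 tested members, at 4.42. The part of that array's wide signal spread in these values was not tested.

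The other 12 were scattered over 4 groups. Among males of obese fathers, Cdc45 (3.53) and Mcm10 (3.87) were high on array 12, Pole (2.32) was high on array 10 and Mcm4 (3.18) was low on array 11. Among females of obese mothers, Cdc45 (3.27) was high on array 18 and Mcm6 (2.88) was low on array 19. Among males of lean parents, Gins1 (3.31) was high on array 3 and Rfc5 (3.52) was low on array 2. Among females of lean parents, Cdt1 (3.41) was high on array 13, Gins3 (3.34) on array 14 and Pold3 (2.39) on array 15, and Mcm10 (2.58) was low on array 16.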

How the results depend on the processing

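No paired analysis was possible because each array number belongs to 1 sample and groups share none. The count of called members stayed at 0 in all 11 comparisons under every alternative, with an exception between males and females of obese fathers. There Rnaseh2a was called (1 member) with the array signal spread as a covariate, at -0.88. It was not called when array 22 was left out as well, an alternative chosen after seeing the data. Nor was it called when that covariate was fitted without the filter on dim genes. The count of all called genes, 1 in 3 comparisons, moved as follows. For obese father minus lean parents in males it was 0 with the stricter filter, with only the contrast's groups and with the covariate and array 22 left out, and 2 with array weights and with the covariate. For obese mother minus obese father in males it was 0 with the stricter filter, the covariate, only the contrast's groups and without the 2 arrays of widest spread, and 2 with array weights. For males minus females of obese fathers it was 0 with the stricter filter, centred arrays, only the contrast's groups and the covariate with array 22 left out, and 4 with the covariate. The interaction for obese fathers had 2 with the covariate. The members' median in males minus females of obese fathers was 0.14 with array weights and 0.16 without the 2 widest arrays. In obese father minus lean parents, males, it was -0.24 with the covariate. In the interaction for obese fathers it was -0.41 with the covariate, and in obese mother minus obese father, females, 0.0915 without the 2 widest arrays. In obese father minus lean parents, males, values reversed with the covariate for Mcm4 (-0.43), Mcm5 (-0.37), Mcm6 (-0.60), Gmnn (-0.31), Pcna (-0.18), Rrm1 (-0.85) and Rrm2 (-0.24). With array 22 also left out they reversed for Mcm4 (-0.22), Mcm5 (-0.27), Mcm6 (-0.11), Pcna (-0.50), Rrm1 (-0.45) and Rrm2 (-0.21), and without the 2 widest arrays for Mcm4 (-0.0114) and Mcm5 (-0.0782). Leaving out 1 array at a time, all called genes ranged over 0 to 2 in obese father minus lean parents, males, over 0 to 1 in females, over 0 to 2 in obese mother minus obese father, males, over 0 to 1 in females, and over 0 to 1 in males minus females of obese fathers. Over the same fits, log2 fold changes in obese father minus lean parents, males, ranged over -0.0757 to 0.13 for Mcm4, -0.0782 to 0.17 for Mcm5, -0.43 to 0.0166 for Mcm7 and -0.0083 to 0.35 for Rrm1. The members' median ranged over -0.36 to 0.0915 in obese mother minus obese father, females, and over -0.24 to 0.26 in males minus females of obese fathers, in both cases highest without array 22. The cause of these moves was not tested. Dim members limit what can be seen, since 9 of 47 had too little signal to be tested.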
